A study of Homo sapiens with 4 samples.

Results

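Polyamines are made and broken down by a small set of enzymes and their regulators, and 9 genes of that set are described here: ODC1, AMD1 and SRM for synthesis, OAZ1, OAZ2 and AZIN1 for control, and SAT1, PAOX and SMOX for breakdown. They were picked by gene symbol as a pathway, with earlier results of these data known, and all 9 were present among the 28063 gene rows of the count tables and among the 14141 genes that passed the filter on low counts. RNA was sequenced from KELLY, a MYCN-amplified line grown from a human neuroblastoma. In both groups the cells carried a lentiviral vector for FLAG-tagged IWS1, a transcription elongation factor, and had been selected with 1 ug/ml puromycin. The WT group received wild-type IWS1-FLAG (2 libraries) and the M3 group a form with a disrupted TIM3, a motif through which IWS1 binds other transcription factors (2 libraries). The labels do not mention removal of the cells' own IWS1, so each group may hold it beside the tagged protein. Nor do they name separate cultures behind the 2 libraries of a group. The p-values here measure only the spread between libraries, which may be technical and which the fit partly shares over genes.

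Putrescine, spermidine and spermine are small positively charged molecules that bind nucleic acids and are needed by dividing cells. Ornithine decarboxylase (ODC1) makes putrescine, and S-adenosylmethionine decarboxylase (AMD1) supplies the aminopropyl groups that spermidine synthase (SRM) adds to it. Antizymes (OAZ1, OAZ2) bind ODC1 and send it to the proteasome, and the antizyme inhibitor AZIN1, an inactive relative of ODC1, takes antizyme away from it. SAT1 acetylates spermidine and spermine, PAOX oxidises the acetylated forms, and SMOX oxidises spermine itself. ODC1 is a known MYCN target in neuroblastoma and is inhibited by the drug difluoromethylornithine.

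Short stretches of sequence are shown for 4 of these genes, for the E-box in ODC1 and SRM and for the antizyme frameshift site in OAZ1 and OAZ2. The E-box CACGTG, the letters that MYC and MYCN proteins are known to bind with MAX, is the same on either strand, and it was looked for in the RefSeq start-site windows (GRCh38.p14, 250 bases before to 50 after a start), which held 9 windows for 6 of the 9 genes. It stood in 2 of the 9 windows, from ODC1 and SRM, beside 7.26% of all 35116 windows. By gene that was 2 of 6, beside 8.78% of all genes with a window. A further ODC1 window, at a start farther upstream, held no copy. AZIN1, PAOX and SMOX had no window. The ODC1 stretch (chr2:10447999-10448066, minus strand) holds 2 copies, both in an intron of the main GENCODE transcript and near a second annotated start. The SRM stretch (chr1:11060187-11060242, minus strand) lies upstream of its gene. The motif is in capitals, and a match describes these letters only.
ODC1: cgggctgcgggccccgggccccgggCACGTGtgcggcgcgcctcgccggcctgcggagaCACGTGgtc
SRM: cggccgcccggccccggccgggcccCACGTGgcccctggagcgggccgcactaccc

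Antizymes are made only when the ribosome slips by a single base at a stop codon, which polyamines are known to promote. That step takes place during translation, so read counts do not show it. The site is printed to show what the RNA level of OAZ1 and OAZ2 leaves out. The capitals mark the last codon read before the slip, the TGA stop codon and the next base. The sites (chr19:2271425-2271461, plus strand, and chr15:64691497-64691533, minus strand, from GENCODE 29 transcripts) lie in exons of models annotated as retained-intron transcripts, because the coding models skip a base there (2271443 in OAZ1, 64691515 in OAZ2). They were identical at 34 of 37 bases.
OAZ1: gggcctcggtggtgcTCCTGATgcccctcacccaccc
OAZ2: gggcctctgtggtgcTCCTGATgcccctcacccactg

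Gene counts totalled 12289685 to 20962372 per library, and the 9 genes took 0.157% to 0.181% of them. Levels are given as CPM, reads per 1000000 gene counts after TMM scaling. IWS1 itself was higher in M3 (370 and 394 CPM in WT, 596 and 599 in M3; edgeR adjusted p = 0.0225, 0.215 without M3 1 and 0.138 without M3 2), a count that would take in reads of the vector as well as of the endogenous gene and cannot tell wild-type from mutant IWS1. Of 8 markers of the neuroblastoma line none rose and 3 fell (PHOX2A, DBH and TH), beside 9.16% higher and 6.63% lower over all tested genes. The 8 summed to 6307 and 6023 CPM in the WT libraries and to 4915 and 4957 in the M3 libraries. PHOX2A, DBH and TH have a GC content of 66.5%, 60.7% and 65.8%. A part of GC content or transcript length in their fall was not tested. Summed Schwann, endothelial, blood and epithelial markers stayed between 1.17 and 6.89 CPM in every library, with S100B, CDH19 and CD3E at 0 throughout. The 6 fibroblast markers summed to 94.9 CPM in each WT library and to 125 and 124 in M3, mostly from PDGFRB, and the part of these shifts in the results on the 9 genes was not tested. In bulk RNA fewer cells with a transcript and less of it per cell cannot be told apart.

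Per length of transcript the 9 genes fell into a high, a middle and a very low group in every library. The levels in this paragraph are CPM per 1000 nt of each gene's representative transcript. OAZ1 was highest (515 ± 114 in WT, 359 ± 11.3 in M3; SD, n = 2), followed by ODC1 (221 ± 19.03 and 199 ± 8.45) and SRM (195 ± 49.0 and 119 ± 1.79). ODC1 and SRM overlapped in WT and did not overlap in M3. OAZ2 followed (60.4 ± 10.6 and 52.0 ± 2.46), and AMD1 (30.9 ± 3.53 and 42.2 ± 1.26) and AZIN1 (31.2 ± 0.975 and 40.3 ± 1.08) lay side by side, overlapping in WT and not in M3. The breakdown genes were low: SMOX at 2.70 ± 0.541 and 1.30 ± 0.0859, SAT1 at 2.54 ± 0.126 and 2.51 ± 1.17, and PAOX at 0.897 ± 0.256 and 0.721 ± 0.0477. SMOX and SAT1 overlapped in WT and not in M3. By CPM, ODC1 stood above 98.4% of tested genes and PAOX above 8.59%.

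The comparison asked how RNA levels in M3 cells differed from those in WT cells. Of the 9 genes, AMD1 rose and SRM and SMOX fell at an edgeR quasi-likelihood adjusted p below 0.05, and the other 6 did not pass. Over all tested genes 15.8% passed, 9.16% higher and 6.63% lower, so 1 of 9 higher is near the background. With 9 genes the 2 of 9 lower rest on SRM and SMOX alone. The median log2 fold change of the 9 was -0.21, beside -0.01 over all tested genes, and 6 of the 9 had groups that did not overlap, beside 68.2% of all tested genes. At an unadjusted p below 0.05 the count was 5 of 9, beside 35.9% of all tested genes. The M3 libraries were both below WT in 4 of the 9 and both above in 2, beside 34.1% and 34.0% of all tested genes. The 3 calls were all lost with either M3 library left out, with total-count scaling, and after removing how counts in each library went with transcript length and GC content.

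**Figure D1:**
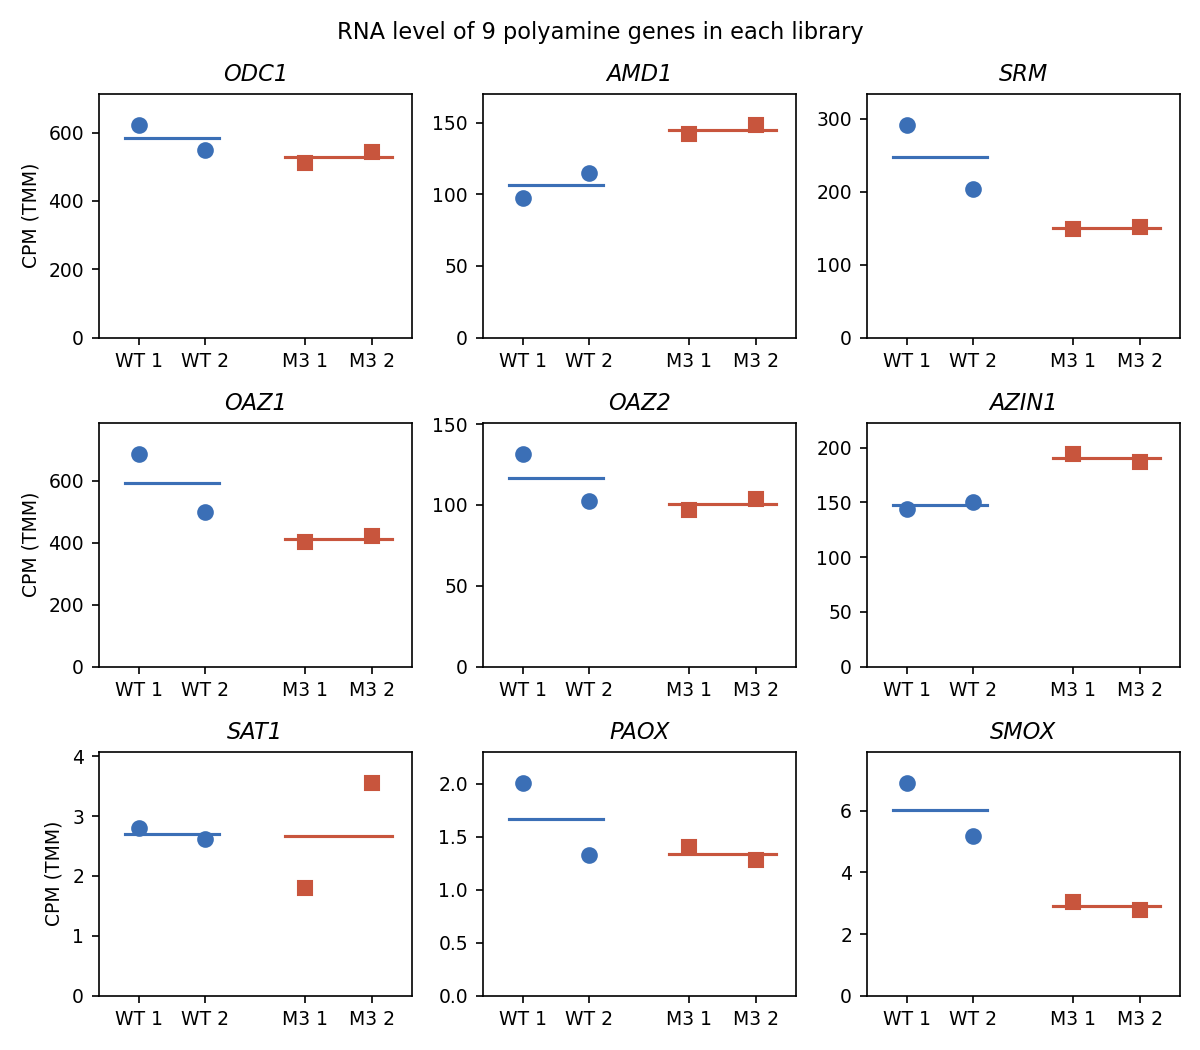
RNA level of each of the 9 genes (y axis, CPM after TMM scaling, starting at 0) in the 2 WT libraries (blue circles) and the 2 M3 libraries (red squares), with lines at the group means. The M3 points of SRM and SMOX sit below and those of AMD1 and AZIN1 above both WT points, and WT 1 and WT 2 lie far apart for SRM and OAZ1.

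Among the synthesis genes, ODC1 (chr2:10439968-10448504) was read at 621 CPM in WT 1 and 550 in WT 2, and at 512 in M3 1 and 544 in M3 2. The groups did not overlap, but M3 2 was close to WT 2. The log2 fold change was -0.15 ± 0.13 (SE), with a 95% interval from -0.45 to 0.15 and an adjusted p of 0.448. The interval holds values on either side of 0, so no direction can be given for ODC1. MYCN, the regulator named above, had 2386 and 2385 CPM in the WT libraries against 2247 and 2258 in the M3 libraries. Both M3 libraries were below both WT libraries, as in 34.1% of all tested genes. The MYCN log2 fold change was -0.08 ± 0.16 (adjusted p = 0.736), with an SE that draws on the spread of other genes too. Its direction turned with total-count scaling (0.03) and once the trends on length and GC content were taken out (0.15).

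AMD1 (chr6:110874770-110895713) was read at 97.7 and 115 CPM in WT and at 142 and 148 in M3, with both M3 libraries above both WT libraries. AMD1 rose 1.36-fold (log2 fold change 0.45 ± 0.13), and its adjusted p of 0.0482 was just inside the threshold. The call was lost with upper-quartile scaling (0.0559), total-count scaling (0.0556) and the replicate number as a block (0.0871), and over 16 alternatives the adjusted p ran from 3.11e-07 to 0.603.

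SRM (chr1:11054584-11060024) was read at 291 CPM in WT 1, 203 in WT 2, 149 in M3 1 and 152 in M3 2. The M3 libraries were close to each other and below both WT libraries, while the WT libraries differed more from each other than WT 2 did from M3. SRM was 1.64-fold lower in M3, a log2 fold change of -0.72 ± 0.17 with an adjusted p of 0.0316. Without WT 1 the log2 fold change was -0.44, and with total-count scaling it was -0.59 with no call (0.0506). Over 16 alternatives the adjusted p ran from 1.06e-23 to 0.313. SRM and AMD1, which encode successive steps, thus moved in opposite directions in this fit. Their ratio per length was 8.09 and 4.81 in WT and 2.84 and 2.78 in M3, and it was not tested. It depends on trends with transcript length and GC content. With those removed, the log2 fold changes of SRM and AMD1 were -0.20 and 0.11, and neither gene passed.

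Among the control genes none passed the test. OAZ1 (chr19:2269509-2273490), the main antizyme, was read at 684 and 499 CPM in the WT libraries and 403 and 421 in the M3 libraries. Both M3 libraries were below both WT libraries, but the gap between the WT libraries was larger than that between WT 2 and M3. The log2 fold change was -0.52 ± 0.17 (95% interval from -0.90 to -0.15), with an adjusted p of 0.0616, and it was -0.28 without WT 1. It passed with DESeq2 (0.0122), without a count filter (0.00153) and with the replicate numbers crossed in a block (0.000357), within a range over alternatives up to 0.647. Those settings called 21.4%, 19.4% and 37.6% of all genes tested. Without WT 2 the log2 fold change of OAZ1 was -0.74. In GENCODE 19.2% of the exonic bases of OAZ1 lie in another gene model on its strand, so its count is uncertain.

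OAZ2 (chr15:64687573-64703281), the second antizyme, was read at 131 and 102 CPM in the WT libraries and 97.2 and 104 in the M3 libraries. The groups overlapped, with WT 1 above the other libraries. The log2 fold change was -0.21 ± 0.15 (95% interval from -0.55 to 0.12; adjusted p = 0.322), and without WT 1 it was -0.03. OAZ1 was 8.78 and 8.23 times OAZ2 per length in WT and 6.99 and 6.83 times in M3, values that do not overlap. This ratio was not tested. With trends on transcript length and GC content removed, the log2 fold changes of OAZ1 and OAZ2 were -0.12 and 0.04.

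AZIN1 (chr8:102826357-102893864), the antizyme inhibitor, was read at 144 and 151 CPM in the WT libraries and 194 and 187 in the M3 libraries. The libraries of each group were close together and the groups did not overlap. The log2 fold change was 0.37 ± 0.11 (95% interval from 0.11 to 0.63), with an adjusted p of 0.0584. It passed with DESeq2 (0.0476) and with the replicate numbers crossed in a block (0.0043), in a range over alternatives up to 0.631. Those settings called 21.4% and 37.6% of all genes tested. Without WT 1 the log2 fold change of AZIN1 was 0.33 and without WT 2 it was 0.40. An antisense gene, AZIN1-AS1, covers 7.07% of its exonic bases and had only 14 to 52 reads per library. Per length AZIN1 was 0.0512 and 0.0734 times OAZ1 in WT and 0.117 and 0.108 times in M3, while ODC1 was 0.393 and 0.477 times OAZ1 in WT and 0.550 and 0.559 times in M3. In both ratios the M3 libraries lay above the WT libraries. These ratios do not depend on scaling between libraries, but they do on trends with transcript length and GC content: with those removed, the log2 fold changes of AZIN1 and OAZ1 were 0.10 and -0.12. The ratios were not tested.

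The breakdown genes had few reads. SMOX (chr20:4120980-4187747), spermine oxidase, had 86 and 109 reads in WT and 39 in each M3 library, or 6.89 and 5.18 CPM in the WT libraries and 3.04 and 2.77 in the M3 libraries. Both M3 libraries were below both WT libraries. SMOX was 2.06-fold lower in M3, a log2 fold change of -1.04 ± 0.28 with an adjusted p of 0.0402, and only 1.22% of tested genes had a lower log2 fold change. The call was lost with DESeq2 (0.0602), total-count scaling (0.0667) and without WT 1 (0.0527), and over 16 alternatives the adjusted p ran from 0.000767 to 0.200.

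SAT1 (chrX:23783173-23786226), the spermidine and spermine acetyltransferase, had 35 and 55 reads in WT and 23 and 50 in M3. That was 2.80 and 2.61 CPM in the WT libraries and 1.79 and 3.55 in the M3 libraries, so the M3 libraries lay on either side of the WT libraries. The log2 fold change was -0.01 ± 0.38. Its 95% interval ran from -0.87 to 0.86, so changes within that range in either direction remain possible. PAOX (chr10:133379234-133391694), the oxidase of acetylated polyamines, had 25 and 28 reads in WT and 18 in each M3 library. This gave 2.002 and 1.33 CPM in the WT libraries and 1.40 and 1.28 in the M3 libraries, with overlapping groups. Its log2 fold change was -0.28 ± 0.42, with a 95% interval from -1.23 to 0.67 (adjusted p = 0.654).

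**Figure D2:**
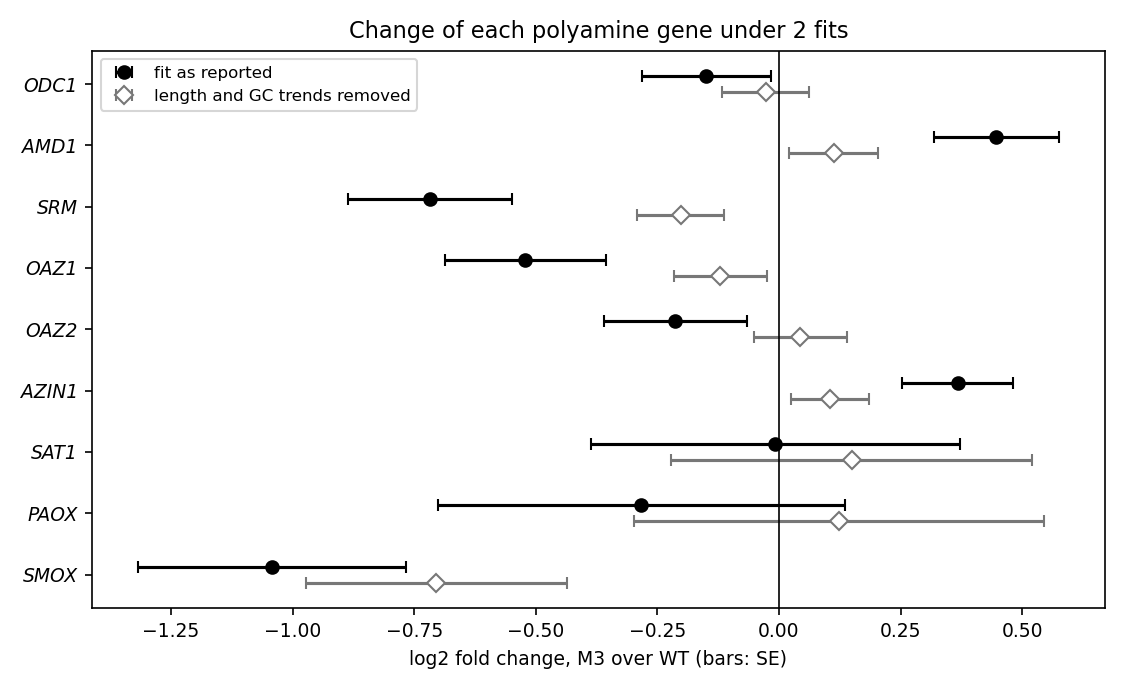
Log2 fold change of M3 over WT (x axis; bars are the SE) for the 9 genes, from the fit as reported (black) and after the trends on transcript length and GC content were taken out per library (open grey). SRM moved from -0.72 to -0.20 and AMD1 from 0.45 to 0.11, while SMOX moved from -1.04 to -0.70.

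Over all genes the direction of change went with transcript length. Tested genes were put into 4 bands of equal size by transcript length. In the shortest band (up to 1989 nt) the median log2 fold change was -0.33, with 16.7% of genes lower and 1.61% higher. In the following bands the medians were -0.14 and 0.07, and in the longest band (from 4891 nt) the median was 0.35, with 0.877% lower and 24.6% higher. SAT1 (1065 nt), OAZ1 (1148 nt), SRM (1266 nt), PAOX (1858 nt) and OAZ2 (1934 nt) belong to the shortest band, SMOX (2233 nt) and ODC1 (2653 nt) to the next, and the genes with positive values, AMD1 (3438 nt) and AZIN1 (4721 nt), to the third. AMD1 and AZIN1 also had the lowest GC content of the 9, at 38.0% and 42.3%, followed by SAT1 at 43.8%, ODC1 at 51.2% and the others up to 63.7% in SRM. Length and GC content cannot be told apart over these 9 genes.

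With these trends on length and GC content removed, 4.91% of 13676 genes passed in edgeR (2.35% higher, 2.55% lower). None of the 9 did. At an unadjusted p below 0.05 the count was 2 of 9, beside 23.5% of all genes tested. AMD1 was then at 0.11 ± 0.09 (adjusted p = 0.504), SRM at -0.20 ± 0.09 (0.203), OAZ1 at -0.12 ± 0.10 (0.494) and AZIN1 at 0.10 ± 0.08 (0.474). ODC1 was at -0.03 ± 0.09 (0.886). SMOX was at -0.70 ± 0.27 (0.142), weaker than its -1.04 and no longer passing. OAZ2 (0.04), SAT1 (0.15) and PAOX (0.12) turned to the other side of 0, each within its error.

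**Figure D3:**
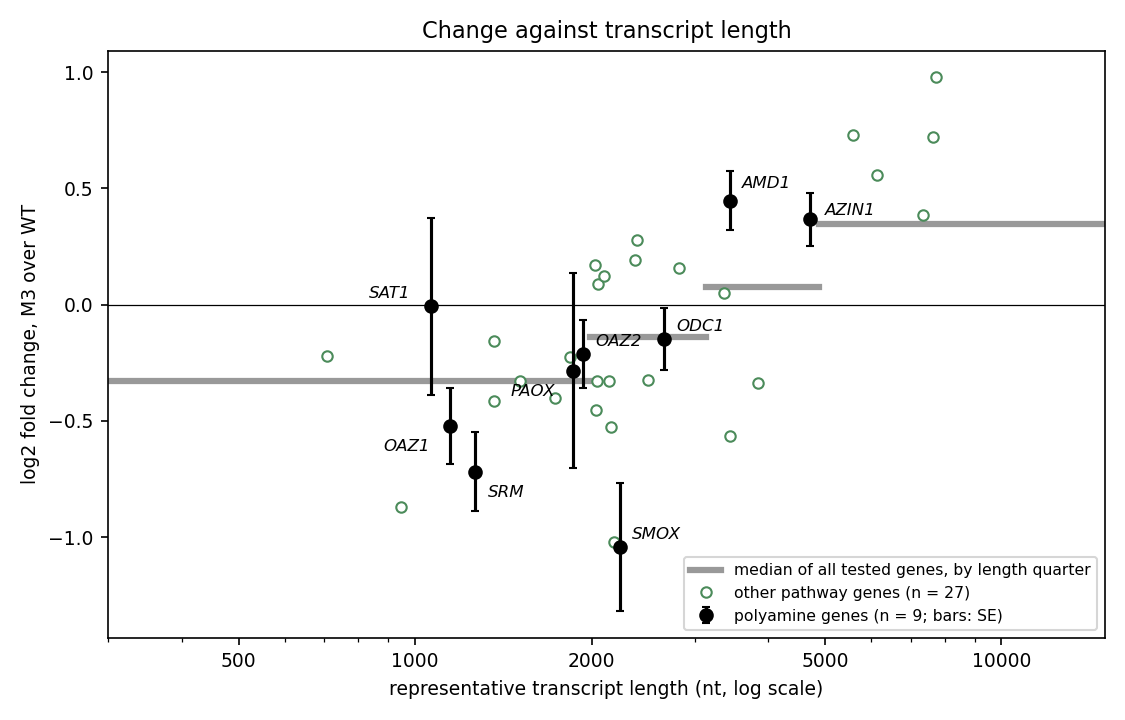
Log2 fold change of M3 over WT (y axis) against representative transcript length (x axis, nt, log scale) for the 9 genes (black, with SE) and 27 other pathway genes (open green), with grey lines at the median of all tested genes in each of 4 length bands. The grey medians climb from -0.33 to 0.35, and SMOX at -1.04 lies farthest below its band among the 9.

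The chi-square over genes for each degree of freedom was 23.9 between the WT libraries and 4.66 between the M3 libraries. It was taken on raw counts and grows with depth, and WT 2 had the most counts (20962372), so pairs compare only roughly. Between the groups it was 25.1 and 34.4 for WT 2 against M3 2 and M3 1, and 61.9 and 77.6 for WT 1 against M3 2 and M3 1. In 6 of the 9 genes WT 2 lay between WT 1 and both M3 libraries, as it did in 53.6% of all tested genes. Leaving out WT 1 brought most values closer to 0 and leaving out WT 2 moved them away from it. ODC1 was at -0.07 without WT 1 and at -0.24 without WT 2, where it passed (adjusted p = 0.0341). SRM was at -0.44 and -0.96 and AMD1 at 0.33 and 0.57. Without WT 2, 7 of the 9 genes passed beside 46.2% of all genes tested, and without WT 1, 4 did beside 24.1%, but in those fits only the M3 pair gives a spread. Without M3 1 or without M3 2 none passed in edgeR, beside 2.47% and 7.33% of all genes tested, and there the spread comes from the WT pair. At an unadjusted p below 0.05 it was 2 of 9 each time, beside 15.4% and 22.7% of all genes tested. The adjusted p of SRM was then 0.131 and 0.0629, that of AMD1 0.344 and 0.327, and that of SMOX 0.137 and 0.130.

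**Figure D4:**
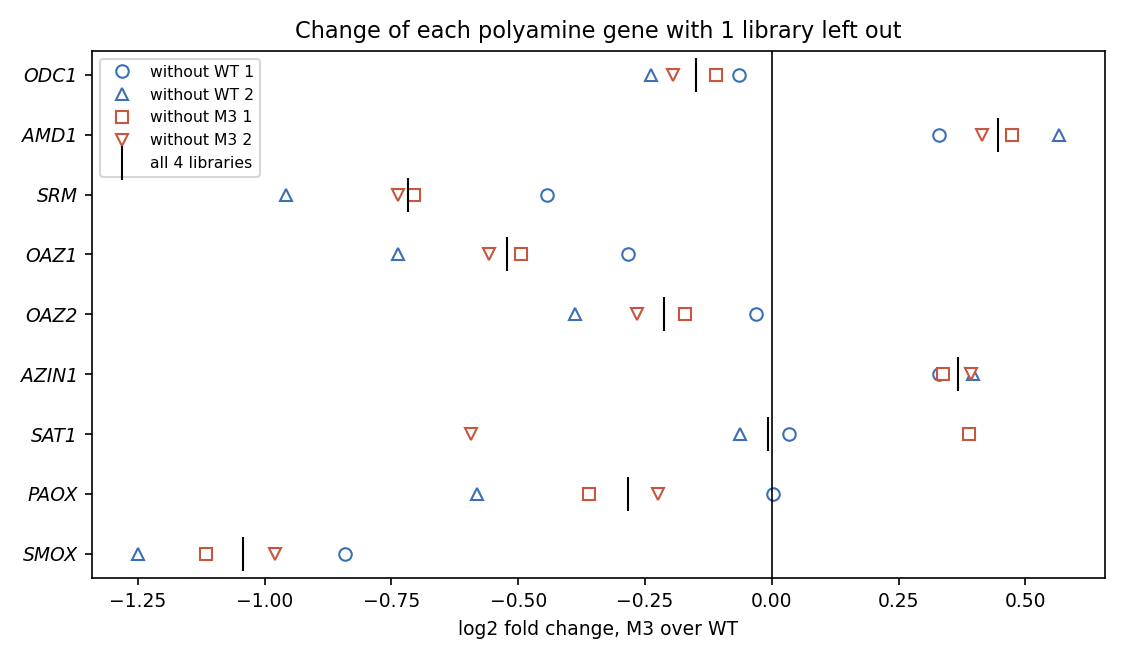
Log2 fold change of M3 over WT (x axis) for the 9 genes with all 4 libraries (black line) and with WT 1, WT 2, M3 1 or M3 2 left out (symbols). AMD1, AZIN1, SRM, OAZ1, ODC1, OAZ2 and SMOX keep their sign in each fit, while SAT1 and PAOX do not.

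Of 32 listed genes around the pathway 27 were tested. SLC7A2, MTAP and ATP13A3 rose and SAT2 and SLC3A2 fell, a share near the 15.8% of all genes. The counts and medians of the lists below stand beside 9.16% higher, 6.63% lower and a median of -0.01 over all tested genes. No direction of a list was tested. With the trends removed none passed, and 5 of the 27 had an unadjusted p below 0.05, beside 23.5% of all genes tested. SATL1, ARG1, ATP13A4 and SLC22A3 were among those with too few reads to be tested.

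Among 5 other polyamine enzymes and regulators, SAT2, a relative of SAT1, fell (-0.87 ± 0.17, adjusted p = 0.0230). It was at 20.3 and 20.2 CPM in the WT libraries and at 9.97 and 12.2 in the M3 libraries. None rose, and the list median was -0.32. SAT2 has a short transcript of 946 nt, and it lost the call without M3 1 (-0.74, adjusted p = 0.164) and with the trends removed (-0.45, 0.115). Spermine synthase (SMS), named after its values were seen because it completes the synthesis route, had 284 and 229 CPM in the WT libraries against 216 and 223 in the M3 libraries (-0.22 ± 0.14, adjusted p = 0.260).

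Of 5 tested transporters, ATP13A3, a polyamine uptake ATPase, rose by 0.98 ± 0.18 on the log2 scale (adjusted p = 0.0221). It was at 77.6 and 115 CPM in the WT libraries and at 197 and 182 in the M3 libraries. It passed with each library left out, but not with the trends removed (0.34, adjusted p = 0.0692), and its transcript is long at 7720 nt. SLC3A2, the heavy chain of amino acid transporters that has also been linked to polyamine transport, fell (-0.53 ± 0.14, adjusted p = 0.0412), from 160 and 127 CPM to 97.8 and 102. It lost the call without M3 1 (0.330) or M3 2 (0.180) and with total-count scaling (0.0765). The list median was -0.34.

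Of 5 tested genes of ornithine and arginine supply 1 rose and none fell, beside 9.16% higher and 6.63% lower over all tested genes. The list median was 0.09. SLC7A2, a cationic amino acid transporter that carries arginine, rose by 0.72 ± 0.18 (adjusted p = 0.0361), from 41.2 and 59.0 CPM to 89.1 and 76.9. It lost the call without M3 1 (0.207) and with total-count scaling (0.0541), and its transcript has 7638 nt. Of 8 genes of the methionine cycle and of methionine salvage 1 rose and none fell, with a median of 0.14. MTAP, which recycles the methylthioadenosine left over from spermidine and spermine synthesis, rose by 0.56 ± 0.14 (adjusted p = 0.0348), from 22.0 and 23.1 CPM to 32.9 and 33.5. It lost the call without M3 1 (0.268) or M3 2 (0.199), and with the trends removed it was at 0.08.

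Of 4 genes of eIF5A hypusination, a modification made from spermidine, none passed, with a median of -0.37. EIF5A had 1821 and 1336 CPM in the WT libraries against 1231 and 1286 in the M3 libraries (-0.33 ± 0.18, adjusted p = 0.225). DHPS, which transfers the spermidine part, had 112 and 104 CPM in the WT libraries against 79.2 and 83.4 in the M3 libraries (-0.41 ± 0.12, adjusted p = 0.0521). It passed with upper-quartile scaling (0.0491), DESeq2 (0.0372), without a count filter (0.0254) and with the replicate numbers crossed in a block (0.00245). These settings called 14.6% to 37.6% of all genes tested. Of the exonic bases of DHPS 81.1% lie in other genes, so its count is uncertain. EIF5A2, the paralog of EIF5A, named after its values were seen, had the largest value of the 4 and lay on the other side: 7.29 and 11.3 CPM in WT against 15.1 and 16.04 in M3 (0.73 ± 0.22, adjusted p = 0.0560). It passed with the replicate block (0.0153), without a count filter (0.00361) and with the replicate numbers crossed in a block (0.000427). These settings called 16.4% to 37.6% of all genes tested. With the trends removed EIF5A2 was near 0 (-0.0047, adjusted p = 0.992). Without WT 1 it was at 0.46 and without WT 2 at 1.09. With the trends removed EIF5A (0.08) and DHPS (0.0067) were on the other side of 0.

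**Figure D5:**
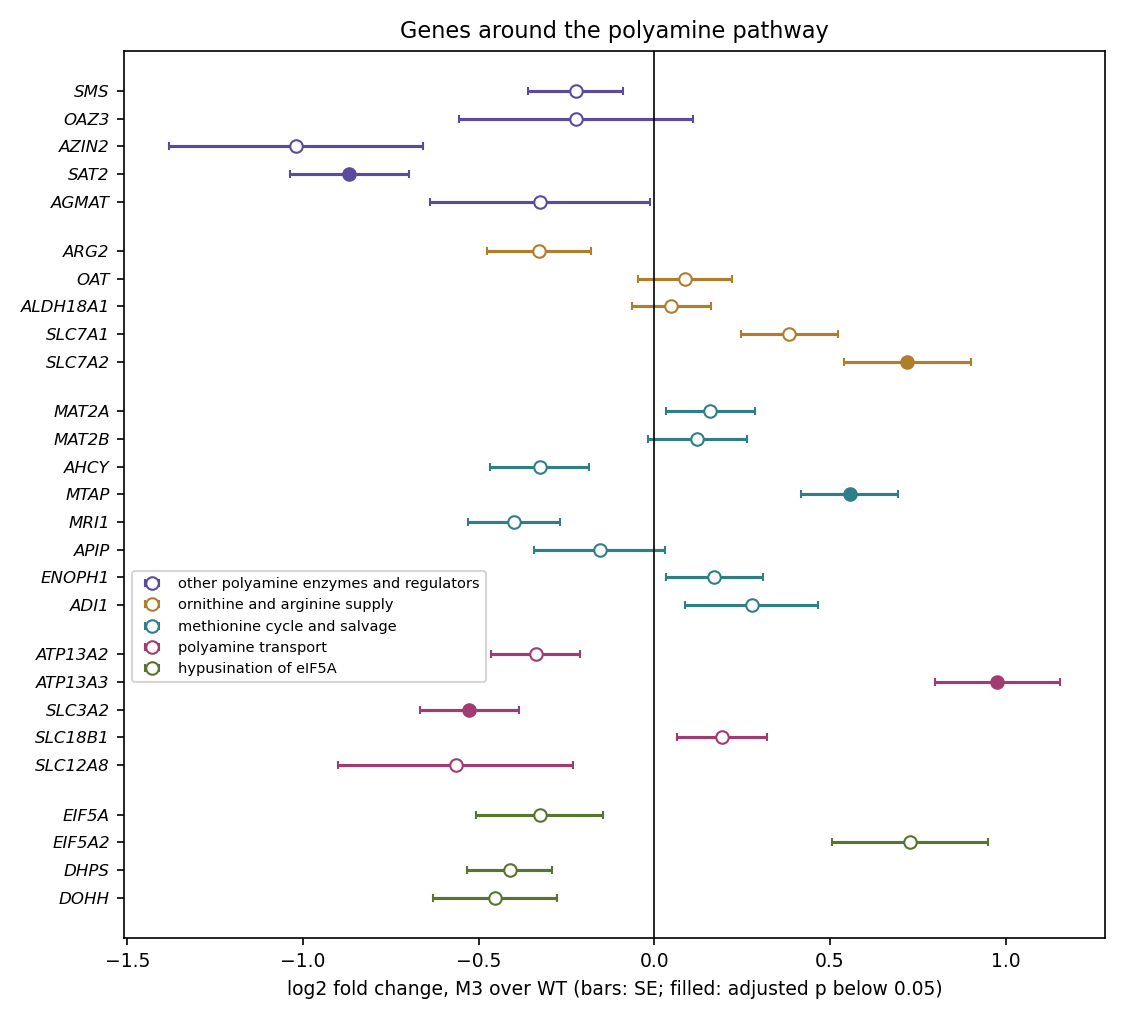
Log2 fold change of M3 over WT (x axis; bars are the SE) for the 27 tested genes around the pathway, coloured by role, with filled points for an adjusted p below 0.05. ATP13A3 at 0.98, SLC7A2, MTAP, SAT2 and SLC3A2 are the filled points.

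The genes most like ODC1 over the 4 libraries were found by the distance between log2 CPM values centred on each gene's mean, among 4528 genes of at least 50 CPM. They were DDX54 (distance 0.0155), BCCIP (0.0176), H2AFY (0.0223), DRG1 (0.0269) and ACTR1A (0.0285), with log2 fold changes from -0.17 to -0.13. None of these 5 passed the test. Of the other members above that level, OAZ2 was closest to ODC1 (0.143) and AMD1 farthest (0.667). Among the 4528 genes they ranked only 611 and 3758 by closeness, so OAZ2 was not among the nearest genes. With 4 libraries such closeness is a description of these libraries.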

How the data were processed

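The authors deposited whole read counts per gene symbol, not normalised, in 1 table per library. The submitters' processing notes name HISAT2 2.1.0, HTSeq, DESeq2 and hg38; which annotation and strand setting the counting used is not given in the sources used here. Sense and antisense partners that overlap can therefore have exchanged reads. Processed pseudogenes of ODC1, AMD1 and SRM may share reads with their parent genes. The summary values for reads in no annotated feature (23.2% to 27.5%) and in several genes (3.16% to 3.50%) stayed out of library sizes and tests.

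M3 was compared with WT without covariates in edgeR 4.0.16 (R 4.3.3): filterByExpr, TMM, a robust quasi-likelihood fit and Benjamini-Hochberg adjustment over all tested genes, with a threshold of 0.05. The SE is the log2 fold change divided by the root of F, and 95% intervals use the fit's t distribution. With 2 libraries a side the smallest exact two-sided permutation p is 0.333, so no such test was run. The scripts were tested on simulated data.

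Transcript length, GC content, positions and exon overlaps came from GENCODE 29 (GRCh38, the build family of hg38). It matched 25815 of 28063 symbols directly, 46 by another symbol, and 96.7% of tested genes. For the trend-removed fit, splines with 5 degrees of freedom on length and on GC content per library entered as offsets. Other alternatives were DESeq2 1.42.0, limma-voom (limma 3.58.1), other scalings and count filters, a replicate block and each library left out. Added after seeing the data were a crossed block and an uncorrected fit on the genes with a transcript.

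The members and lists were chosen with earlier results of these data known. Named were the 9 genes, IWS1 and MYCN, every pathway gene that passed (or, in a list with none, the 2 of highest CPM), and the 5 genes nearest to ODC1.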

Additional observations from a re-analysis of the deposited data

How the results depend on the processing

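Over all genes 2232 passed (1295 higher, 937 lower), or 15.8% of those tested. That share was 7.92% with total-count scaling and 19.4% without a count filter. It was 4.91% with the length and GC trends removed and 3.1% with the replicate block as well. The count was 1120 with total-count scaling (856 higher, 264 lower, with the median of all genes 0.115 higher on the log2 scale), 3945 without a count filter, 671 with the length and GC trends removed (322 higher, 349 lower), 424 with those trends removed and the replicate block, and 359 to 6735 with 1 library left out. Of the 9 polyamine genes 3 passed, against 0 with total-count scaling, 0 with the trends removed, 0 with the trends removed and the block, and 0 to 7 with 1 library left out. Of the other pathway genes 5 passed, against 3 with total-count scaling, 10 without a count filter, 0 with the trends removed, 0 with the trends removed and the block, and 1 to 15 with 1 library left out. Where 0 of the 9 passed, the count at an unadjusted p below 0.05 in edgeR was 5 with total-count scaling (33.1% of all genes), 2 with the trends removed (23.5%), 1 with the block as well (19.7%), 2 without M3 1 (15.4%) and 2 without M3 2 (22.7%). The causes were not tested.

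The replicate number as a block gave 2315 genes (16.4% of all genes tested), and 2 of the 9, since AMD1 lost its call. The labels do not say that a number marks a shared culture, and the deviations of same-numbered libraries from their group means correlated at -0.144 over 14141 genes. Crossing the numbers in the block gave 5314 genes, or 37.6% of all genes tested. Beside that share, 5 of the 9 and 13 of the 27 other pathway genes passed.

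Signs turned with the trends removed, without and with the block, for OAZ2 (0.044 and 0.047), SAT1 (0.15 and 0.12), PAOX (0.12 and 0.12), OAZ3 (0.17 and 0.16), EIF5A (0.082 and 0.086), DHPS (0.0067 and 0.0087) and MYCN (0.15 and 0.15), and for EIF5A2 (-0.0047) without the block only. With total-count scaling SAT1 (0.11) and MYCN (0.035) turned. With a library left out, SAT1 ran from -0.592 to 0.39 and turned without WT 1 (0.03) and M3 1, PAOX ran from -0.582 to 0.0018 and turned without WT 1, and OAZ3 (from -0.512 to 0.024) and OAT (from -0.0109 to 0.173) turned without M3 2. SAT1 and PAOX, with under 60 reads in every library, could not be fitted with a minimum mean count of 50, and DESeq2 gave them no adjusted p.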

Other observations

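COL1A2, a fibrillar collagen chain from the fibroblast marker list that was singled out after its values were seen, had 109 reads in WT 1, 0 in WT 2, 24 in M3 1 and 30 in M3 2. COL1A1 had 211 and 126 reads in WT and 134 and 160 in M3.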
